A study of Homo sapiens with 4 samples.

Results

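The 40 genes described here encode the enzymes of glycolysis, the carriers of glucose and lactate, the subunits of hypoxia-inducible factor (HIF) with the enzymes that mark it for destruction, and further targets of HIF. They were chosen by name from a list of such genes, with earlier results of these data known. Each of the 40 names matched 1 row among the 22361 genes or loci of the deposited table. RNA came from Jurkat cells, an established human line of T-cell acute lymphoblastic leukaemia. In 2 control libraries the cells had been infected with lentivirus carrying a short hairpin RNA (shRNA) against GFP, and in 2 ARIEL knockdown libraries the shRNA targeted ARIEL, a non-coding transcript. All cells were kept in RPMI-1640 medium with serum, were selected with 0.7 µg/ml puromycin and were collected 72 h after infection, and the labels name no low-oxygen treatment, so every level below is one of cells under ordinary culture. The labels give neither the number of shRNA sequences used nor the origin of the replicates. Where these came from 1 culture, the spread behind the p-values is technical.

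Glycolysis splits glucose into pyruvate in the cytosol and yields ATP without oxygen. Leukaemic and activated T cells send much of that pyruvate to lactate, which monocarboxylate transporters carry out of the cell, and pyruvate dehydrogenase kinases hold back its entry into mitochondria. HIF, a pair of the regulated HIF1A and the constant ARNT subunit, binds a short core motif in promoters and enhancers and raises many of these genes when oxygen is low; in oxygen, prolyl hydroxylases of the EGLN family modify HIF1A so that it is degraded. HIF1A is thus controlled mainly at the protein, which was not measured here.

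More members of the list were higher than lower in the ARIEL knockdown libraries, and most differences were small. Of 39 tested members 17 rose, 6 fell and 16 were not called (limma on rlog values, adjusted p under 0.05), and the median difference was 0.06 on the log2 scale against 0.00 for all 14601 genes tested. The share of all tested genes that rose was 22.1% and the share that fell was 22.4%, together 44.4%, beside 43.6% and 15.4% of the members. Of the 9 tested members listed only as further HIF targets, 2 rose and 2 fell, with a median difference of 0.00. As the members were listed with earlier results of these data known, the excess of rises was not tested. Members are abundant: their median level exceeded that of 90.5% of tested genes, and among the 1390 tested genes at or above it 29.9% rose and 25.0% fell. KDELR3, a receptor that returns proteins to the endoplasmic reticulum, lay below the minimum level for testing, with values of 1.28, 1.28, 1.30 and 1.29 in the 4 libraries. The values are regularised logarithms (rlog), a log2 expression scale on which noisy values are drawn towards the gene's mean, so that a difference on it is smaller than the change in RNA. In the authors' deposited table a total of 17 members passed an adjusted p of 0.05 as higher and 4 as lower, where 20.1% of genes were higher and 19.3% lower. In both the limma fit and the authors' deposited table, 21 members were called in the same direction. The largest fold among risen members in the authors' deposited table was 1.52 (CA9) and the largest among fallen members 1.23 (NDRG1). Whether the deposited folds were themselves drawn towards no change was not tested.

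**Figure D1:**
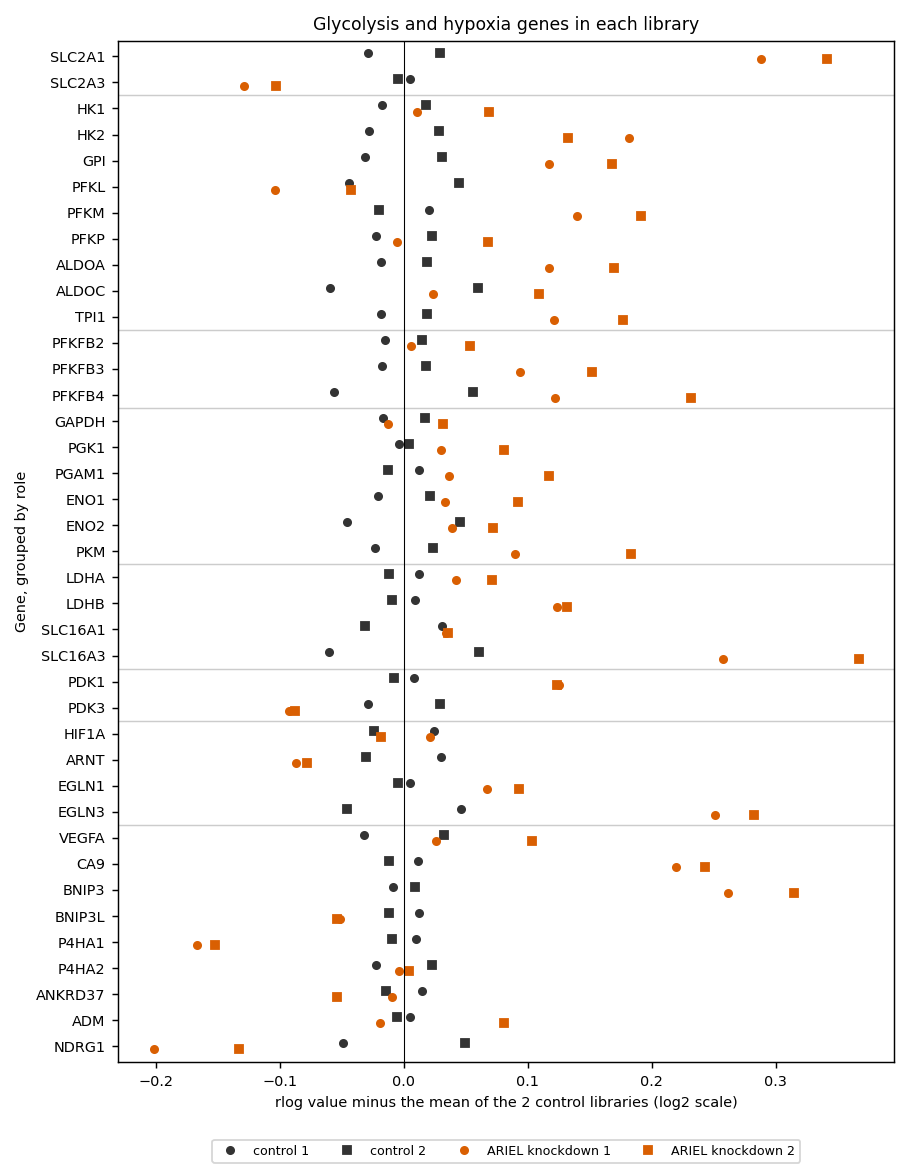
Each member's rlog value in each library, minus the mean of the 2 control libraries (x axis, log2 scale), for 39 tested genes grouped by role (y axis). Black points are control and orange points ARIEL knockdown libraries; SLC2A1, SLC16A3, BNIP3, EGLN3 and CA9 lie farthest to the right, and P4HA1 and NDRG1 farthest to the left.

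The targeted RNA has no row named ARIEL. Background knowledge of the study ties it to the unannotated locus XLOC_005968, whose rlog values were 12.02 and 11.91 in control and 10.58 and 10.55 in knockdown libraries. Median rlog over all tested genes lay between 11.31 and 11.32 in every library, and the table gives no counts, so depth is unknown. Of 12 markers of Jurkat and T-lineage cells none was listed at 0, but 5 fell and 2 rose, beside 22.4% and 22.1% of all tested genes. Their differences ran from -0.32 for CD5, a surface receptor of T cells, to 0.23 for CD7, both named after their values were seen, and their summed linear level was 319898 and 322161 in control and 307752 and 311716 in knockdown libraries. Of 14 markers of other cell types with a row, 5 were tested (2 rose and 1 fell) and 4 were listed at 0. The summed level of these markers was 2170 and 2284 in control and 2625 and 2659 in knockdown libraries, almost all of it from the B-cell gene CD79A. Without CD79A it was 243 and 248 against 226 in both knockdown libraries. The part of either marker list in the results was not tested. In bulk RNA, fewer cells of a type and less RNA per cell cannot be told apart.

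The members of the list differed between replicates as well as between groups. Relative to the mean of the 4 libraries, the median member stood at -0.04 and -0.02 in the control libraries and at 0.01 and 0.05 in the knockdown libraries, while the median of all tested genes was 0.00 in each. Knockdown library 2 exceeded knockdown library 1 in 34 of 39 members, by a median of 0.05, and control library 2 exceeded control library 1 in 23 of 39, by a median of 0.03. The 2 groups did not overlap in 27 of 39 members (69.2%), 21 above and 6 below control, against 70.7% of all tested genes. Without knockdown library 2 the median difference of the members was 0.03, and without knockdown library 1 it was 0.09.

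Of the glucose transporters, SLC2A1 rose and SLC2A3 fell. SLC2A1, which encodes GLUT1, had rlog values of 13.81 and 13.87 in control and 14.13 and 14.18 in knockdown libraries. Both knockdown values lay above both control values, and the difference was 0.32 ± 0.03 (SE, n = 2 per group; limma, adjusted p = 3.30e-21), the largest of any member. This SE and those of the rlog differences below come from the spread shared by genes of a level, not from a gene's own replicates. SLC2A3, which encodes the high-affinity transporter GLUT3, went from 12.39 and 12.38 to 12.26 and 12.28. Its groups did not overlap either, and it differed by -0.12 ± 0.04 (limma, adjusted p = 0.00388; without knockdown library 1 the difference was -0.10 and not called, adjusted p = 0.0772). In the authors' deposited table SLC2A1 was 1.48-fold higher and SLC2A3 1.16-fold lower. SLC2A3 has a near-identical relative, SLC2A14, and reads of that pair may be shared.

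In the upper part of the pathway, from glucose to triose phosphate, 5 of 9 enzymes rose and 1 fell. Among all tested genes 22.1% rose and 22.4% fell. Hexokinase traps glucose in the cell: HK2, the inducible form, had 12.99 and 13.04 in control and 13.20 and 13.15 in knockdown libraries, a difference of 0.16 ± 0.03 (SE), while HK1, the form found in most tissues, differed by 0.04 ± 0.03 and was not called (limma, adjusted p = 0.327). GPI, the next enzyme, had 16.44 and 16.50 against 16.59 and 16.64, a difference of 0.14 ± 0.03. Of the 3 subunit genes of phosphofructokinase, the committed step, 1 rose, 1 fell and 1 was not called. PFKM, the muscle form, rose by 0.17 ± 0.05, from 9.63 and 9.59 to 9.75 and 9.80 (without knockdown library 2, 0.14 and not called; limma, adjusted p = 0.0691). PFKP, the platelet form, differed by 0.03 ± 0.03 and was not called. PFKL, the liver form, differed by -0.07 ± 0.03 and its call was at the edge (limma, adjusted p = 0.0495), and in the authors' deposited table its adjusted p was 0.0981. PFKL had values of 14.06 and 14.15 in control and 14.00 and 14.07 in knockdown libraries, so its groups overlapped, as did those of no other called member. Its call was lost without control library 2 (-0.03), without knockdown library 1 (-0.04) and without knockdown library 2 (-0.10; limma, adjusted p = 0.0508). The aldolase gene ALDOA had 17.35 and 17.38 in control and 17.48 and 17.53 in knockdown libraries, and triose phosphate isomerase, TPI1, had 17.46 and 17.50 against 17.60 and 17.66. In each the knockdown values were the higher pair, by 0.14 ± 0.04 for ALDOA and 0.15 ± 0.04 for TPI1. After quantile normalization, which gives the same rank the same value in every library, both remained called but at 0.07 for ALDOA and 0.06 for TPI1. ALDOC, a second aldolase, differed by 0.07 ± 0.03 and was not called, but was called higher without control library 2 (0.13) or knockdown library 1 (0.11).

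The bifunctional PFKFB enzymes make and remove the sugar bisphosphate that activates phosphofructokinase. Of these genes 2 of 3 rose, beside 22.1% of all tested genes. PFKFB4 had 12.59 and 12.71 in control and 12.77 and 12.88 in knockdown libraries, a difference of 0.18 ± 0.03 (SE; limma, adjusted p = 1.96e-06). Its replicates were farther apart than those of most members, with an SD of 0.08 in each group. PFKFB3, the form with the strongest kinase activity, had 13.91 and 13.95 against 14.02 and 14.08, and its groups did not overlap (0.12 ± 0.03; without knockdown library 2, 0.09 and not called, limma adjusted p = 0.0838). PFKFB2 differed by 0.03 ± 0.03 and was not called.

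In the lower part, from triose phosphate to pyruvate, 2 of 6 enzymes rose and none fell, beside 22.1% and 22.4% of all tested genes. The first of these enzymes, glyceraldehyde-3-phosphate dehydrogenase, was nearly level: GAPDH had 19.57 and 19.61 in control and 19.58 and 19.62 in knockdown libraries, a difference of 0.01 ± 0.05 (SE; limma, adjusted p = 0.885), and after quantile normalization its difference was negative and called (-0.11; limma, adjusted p = 5.60e-07). PKM, pyruvate kinase, the last enzyme, had 18.01 and 18.06 against 18.13 and 18.22 and rose by 0.14 ± 0.04 (limma, adjusted p = 0.00135). Its call was lost without control library 1 (0.11; limma, adjusted p = 0.0918) and without knockdown library 2 (0.09; limma, adjusted p = 0.112), and after quantile normalization it was 0.06 and still called. PGAM1, phosphoglycerate mutase, rose by 0.08 ± 0.03, a call lost without control library 1 (0.09), control library 2 (0.06) or knockdown library 2 (0.04). Phosphoglycerate kinase, PGK1, differed by 0.05 ± 0.04 and the enolases ENO1 and ENO2 by 0.06 ± 0.04 and 0.06 ± 0.03, and none of these 3 was called. Without control library 2, ENO2 was called higher (0.10). The groups of PGK1 and ENO1 did not overlap all the same. PGK1 was at 18.31 and 18.32 in control and 18.35 and 18.40 in knockdown libraries. After quantile normalization both differences were 0.00, but there a gene that keeps its rank has the same value in every library by construction. That result therefore does not weigh on these differences. The GAPDH value after that normalization is set by rank in the same way, so its negative difference there is not read as less RNA.

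At the branch from pyruvate to lactate, the dehydrogenase subunit that rose was LDHB. LDHB, the heart-type subunit, had 17.55 and 17.53 in control and 17.67 and 17.68 in knockdown libraries, a difference of 0.13 ± 0.04 (SE; limma, adjusted p = 0.00177), and of 0.08, still called, after quantile normalization. LDHA, the muscle-type subunit and a classical HIF target, had 17.68 and 17.66 against 17.71 and 17.74. Its groups did not overlap, but the difference of 0.06 ± 0.04 was not called (limma, adjusted p = 0.208) and was 0.01 after quantile normalization. Of the lactate carriers, SLC16A3, which encodes the export transporter MCT4, had 12.48 and 12.60 in control and 12.80 and 12.91 in knockdown libraries. The lower knockdown value was well above the higher control value, and the difference was 0.31 ± 0.03 (limma, adjusted p = 3.99e-18). SLC16A1, which encodes MCT1, differed by 0.03 ± 0.03 and was not called. In the authors' deposited table SLC16A3 was 1.47-fold, LDHB 1.17-fold and LDHA 1.07-fold higher, the last with an adjusted p of 0.0839.

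The pyruvate dehydrogenase kinases among the members, PDK1 and PDK3, moved in opposite directions. PDK1 had 14.74 and 14.73 in control and 14.86 and 14.86 in knockdown libraries, with replicates within 0.02 of each other, and rose by 0.12 ± 0.03 (SE). PDK3 went from 11.80 and 11.86 to 11.74 and 11.75, a difference of -0.09 ± 0.04 (limma, adjusted p = 0.0408). Without control library 2 it was -0.06, and the call was lost then and without either knockdown library (limma, adjusted p = 0.161 to 0.260). In the authors' deposited table the adjusted p of PDK3 was 0.0534.

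Neither HIF subunit among the members was called higher, and both prolyl hydroxylases among the members, EGLN1 and EGLN3, rose. HIF1A had 13.21 and 13.16 in control and 13.20 and 13.16 in knockdown libraries, a difference of 0.00 ± 0.03 (SE; limma, adjusted p = 0.977), but with the trend with transcript GC content removed the difference was 0.10 and called. ARNT had 12.88 and 12.82 against 12.77 and 12.77 and fell by 0.08, with an SE of 0.03 (limma, adjusted p = 0.0359). The ARNT call was lost without control library 1 (-0.05), knockdown library 1 (-0.08) or knockdown library 2 (-0.09). EGLN3, a prolyl hydroxylase that is itself a strong HIF target, had 9.63 and 9.54 in control and 9.83 and 9.87 in knockdown libraries. Its groups were clearly apart, and the difference of 0.27 ± 0.05 was among the 5 largest of the members (limma, adjusted p = 2.15e-07). EGLN1, the main oxygen sensor of the family, had 13.76 and 13.75 against 13.83 and 13.85, a difference of 0.08 ± 0.03 (limma, adjusted p = 0.0316). Leaving out any 1 of the 4 libraries gave EGLN1 differences of 0.07 to 0.09 and no call (limma, adjusted p = 0.0650 to 0.248). EGLN3 was 1.47-fold higher and EGLN1 1.11-fold higher in the authors' deposited table.

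Of the remaining HIF targets 2 of 9 tested were higher, 2 lower and 5 not called. These counts are near the shares of all tested genes, 22.1% risen and 22.4% fallen. BNIP3, a mitochondrial protein of mitophagy, had 14.65 and 14.67 in control and 14.92 and 14.98 in knockdown libraries, a difference of 0.29 ± 0.03 (SE; limma, adjusted p = 3.19e-18). CA9, a carbonic anhydrase on the cell surface and a common marker of hypoxic tissue, had 8.23 and 8.20 against 8.44 and 8.46 and rose by 0.23 ± 0.05. In both genes the 4 libraries fell into 2 separate pairs. P4HA1, a catalytic subunit of collagen prolyl hydroxylase, went the other way, from 14.48 and 14.46 to 14.30 and 14.31 (-0.16 ± 0.03; limma, adjusted p = 3.47e-06). NDRG1, a stress-responsive gene, went from 12.64 and 12.74 to 12.49 and 12.56 (-0.17 ± 0.03; limma, adjusted p = 9.17e-06). The angiogenic factor VEGFA differed by 0.06 ± 0.04, the vasoactive peptide gene ADM by 0.03 ± 0.05, ANKRD37 by -0.03 ± 0.05, the mitophagy receptor BNIP3L by -0.05 ± 0.03 and P4HA2 by 0.00 ± 0.03, and none of these was called. P4HA2 was at the low end, between 4.34 and 4.39 in every library, where rlog leaves little room for a difference. In the authors' deposited table BNIP3 was 1.43-fold and CA9 1.52-fold higher (log2 fold change 0.60 ± 0.16, SE), P4HA1 1.22-fold and NDRG1 1.23-fold lower.

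**Figure D2:**
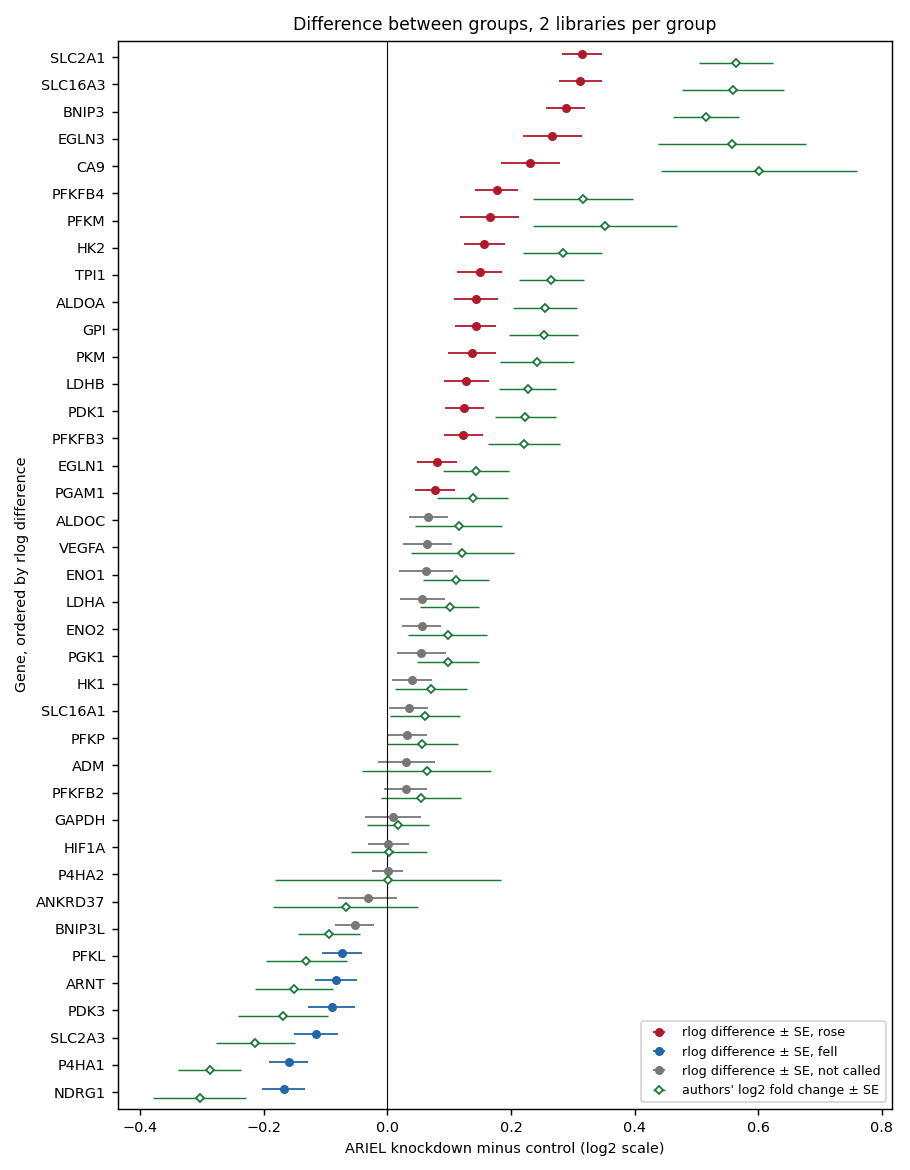
Difference between ARIEL knockdown and control (x axis, log2 scale) for 39 members ordered by size (y axis). Filled circles are rlog differences with SE from limma, red for rises, blue for falls and grey where not called; open diamonds are the fold changes and SE of the authors' deposited table, which lie farther from 0.

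The core motif that HIF binds was searched in the promoters of the members, and 5 promoters with at least 1 match, from genes with 1 entry, are printed as examples picked after matches and values were seen: BNIP3, CA9 and EGLN1, which rose, PGK1, which was not called, and P4HA1, which fell. The letters searched were ACGTG and GCGTG on either strand, in the 250 bases before each gene start in RefSeq's promoter table (build GRCh38.p14), where 34 of the 40 members had at least 1 entry. A palindrome CACGTG counts on both strands. The 5 promoters below are shown from before the farthest match to the base before the start, with matches in capitals. BNIP3 carries 6 matches between 104 and 143 bases before its start, PGK1 carries 3 from 183 to 211 bases before, and CA9, EGLN1 and P4HA1 carry 1 each, at 18, 13 and 86 bases before.
BNIP3 promoter, chr10:131981924-131982076, minus strand: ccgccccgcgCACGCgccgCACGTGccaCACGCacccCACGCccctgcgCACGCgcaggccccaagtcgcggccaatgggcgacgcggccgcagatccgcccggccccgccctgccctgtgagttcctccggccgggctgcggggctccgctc
PGK1 promoter, chrX:78104027-78104247, plus strand: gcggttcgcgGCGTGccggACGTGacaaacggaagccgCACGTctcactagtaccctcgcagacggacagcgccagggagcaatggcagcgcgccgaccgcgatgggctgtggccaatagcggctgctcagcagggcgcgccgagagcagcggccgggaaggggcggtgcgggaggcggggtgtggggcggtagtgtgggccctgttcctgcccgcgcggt
CA9 promoter, chr9:35673868-35673927, plus strand: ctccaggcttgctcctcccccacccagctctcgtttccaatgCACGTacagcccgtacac
EGLN1 promoter, chr1:231422288-231422347, minus strand: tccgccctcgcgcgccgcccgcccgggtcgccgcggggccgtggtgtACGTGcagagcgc
P4HA1 promoter, chr10:73096867-73096962, minus strand: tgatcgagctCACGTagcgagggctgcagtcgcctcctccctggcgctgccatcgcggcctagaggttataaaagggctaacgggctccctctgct

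Matches occurred in risen, fallen and uncalled members. In any of their promoters, 12 of the 17 risen, 3 of the 4 fallen and 11 of the 12 uncalled members with an entry had at least 1 match. Of these members with an entry 3 risen, 0 fallen and 5 uncalled had 3 or more. Among all genes with a RefSeq promoter entry, 47.4% had at least 1 match and 9.43% had 3 or more, counted over any of their promoters. Genes with more annotated starts have more chances. These shares include genes not tested here and were not matched to the members for expression or base composition. The counts are therefore not read as an excess of matches among the members. SLC2A1 and EGLN3, both risen, have no match in this window, and P4HA1, which fell, has 1. No match says only that the letters are not in these 250 bases, and which start Jurkat cells use was not tested.

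For pairs of members with 1 biochemical role, the rlog of one gene was set against that of the other within each library. Such a value also holds the lengths of both transcripts, so it does not say which gene is more abundant, and only its change between groups is read. BNIP3 minus BNIP3L was 0.04 and 0.08 in control and 0.37 and 0.43 in knockdown libraries. SLC2A1 minus SLC2A3 was 1.42 and 1.49 against 1.87 and 1.90, and PDK1 minus PDK3 was 2.94 and 2.86 against 3.12 and 3.11. In these 3 pairs the balance moved towards the first gene. In the other direction, LDHA minus LDHB went from 0.13 and 0.12 to 0.04 and 0.06, HK1 minus HK2 from 0.86 and 0.84 to 0.68 and 0.79, and EGLN1 minus EGLN3 from 4.13 and 4.22 to 3.99 and 3.98. SLC16A1 minus SLC16A3, a pair added after its values were seen, went from 1.75 and 1.56 to 1.43 and 1.32. P4HA1 minus P4HA2 went from 10.14 and 10.07 to 9.94 and 9.95. As P4HA2 lay between 4.34 and 4.39 in every library, near the low end, that shift is essentially the difference of P4HA1. Over all 16 pairs of members with a shared role, the groups did not overlap in 14, including each of these 8. The share of 70.7% for single tested genes is not a rate for pairs, and none was computed. Several pairs also share a gene, so they are not independent. The groups overlapped for ENO1 minus ENO2, at 5.41 and 5.36 against 5.38 and 5.40. They also overlapped for PFKFB3 minus PFKFB4, at 1.32 and 1.24 against 1.25 and 1.20. With 2 libraries against 2, an exact two-sided permutation test of a pair cannot give a p below 0.333, so these shifts are values without a test.

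**Figure D3:**
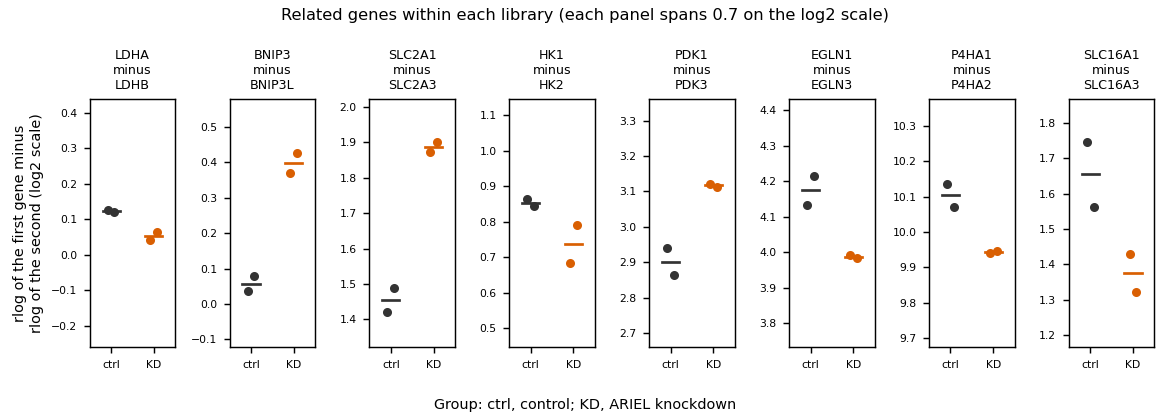
For 8 of the 16 pairs, the rlog of the first gene minus that of the second (y axis, log2 scale, each panel spanning the same range) in control (black) and ARIEL knockdown (orange) libraries. Points are libraries and lines are group means; BNIP3 minus BNIP3L and SLC2A1 minus SLC2A3 show the widest steps.

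Levels between genes were compared per length, as the mean rlog minus the log2 of transcript length in kilobases, over the longest coding transcript in GENCODE 29. On this scale GAPDH (18.69) and ENO1 (18.09) were highest, followed by LDHB (16.99), TPI1 (16.74), ALDOA (16.69), PKM (16.66), LDHA (16.42) and PGK1 (16.06). TPI1, ALDOA and PKM lay within 0.08 of each other, and their order depends on which transcript sets the length. Among the phosphofructokinase genes PFKP led at 14.30, before PFKL at 12.53, and PFKM, the form that rose, was the lowest of the 3. SLC2A1 (12.12) exceeded SLC2A3 (10.36), and HK1 (11.89) exceeded HK2 (10.56). P4HA2 (2.62) was the lowest tested member. Across the tested members, the size of the difference showed little relation to level (Spearman's rho -0.07 over 39 genes that share the same 4 libraries).

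Differences also moved with the GC content of transcripts. Over 12719 tested genes with a GENCODE 29 transcript the median difference went from -0.08 in the decile of lowest GC content to 0.08 in that of highest. Spearman's rho was 0.41 over these genes and 0.26 over the 39 members, whose median GC content was 52.8% against 49.4%. With the trend with GC content and length removed from each library, 21 members rose and 5 fell, against 29.0% and 24.1% of those genes, and the members' median difference was 0.08. SLC2A1 (54.8% GC), SLC16A3 (62.7%), BNIP3 (44.8%) and EGLN3 (49.4%) kept differences of 0.30, 0.27, 0.32 and 0.27. PDK1 (39.8% GC) went from 0.12 to 0.20 and EGLN1 (44.1%) from 0.08 to 0.14. CA9 (60.1%) went from 0.23 to 0.16. ALDOA went from 0.14 to 0.07, TPI1 from 0.15 to 0.09 and PKM from 0.14 to 0.09, and all 3 remained called (limma, adjusted p = 0.0242, 0.00335 and 0.00995). HIF1A, with the lowest GC content of the members (36.4%), went from 0.00 to 0.10 and was called higher (limma, adjusted p = 0.000107), and PGK1, LDHA, SLC16A1 and PFKFB2 were called higher as well. PFKL (63.5% GC), marginal before, went to -0.14 (limma, adjusted p = 6.22e-07), while PGAM1 and ARNT lost their calls (limma, adjusted p = 0.0956 and 0.0959).

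**Figure D4:**
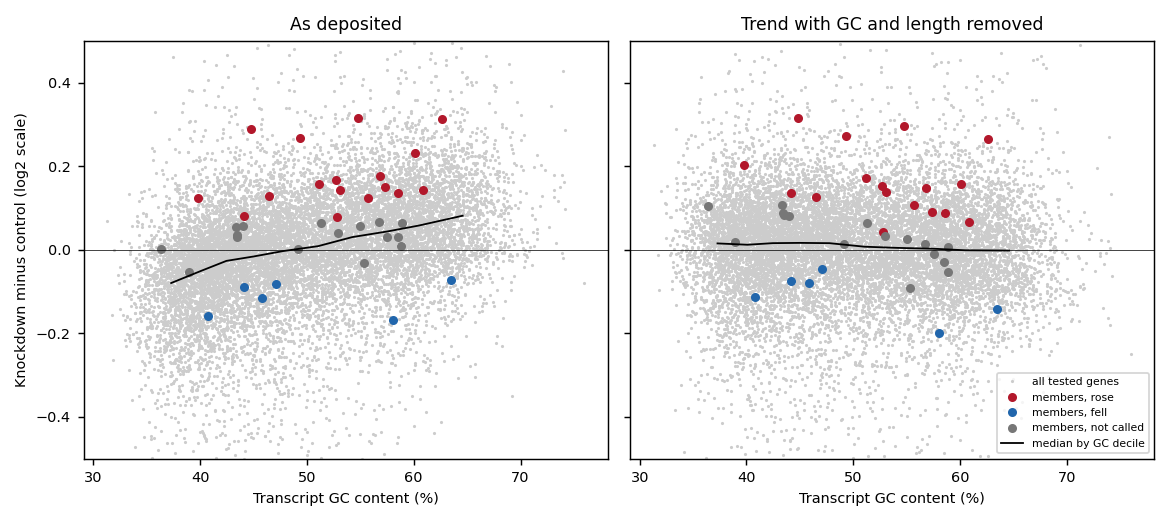
Difference between ARIEL knockdown and control (y axis, log2 scale) against transcript GC content in percent (x axis), as deposited (left) and with the trend with GC content and length removed (right). Grey dots are tested genes, of which those beyond 0.5 are not drawn, the black line is their median by deciles of GC content, and coloured points are the members by their call on the deposited values.

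The 3′ UTRs of the members were searched for 7-base words that had been linked to lower or higher RNA in these same libraries. GATGACA or AGATGAC, whose carriers tended to be lower, occurred in 0 of 6 fallen members and in 2 of 17 risen ones, BNIP3 with both and PDK1 with 1, and in 1 of 16 not called, against 15.6% of 12580 tested genes with a 3′ UTR. TGTTGTC or GTTGTCA, whose carriers tended to be higher, occurred in 4 risen members (SLC2A1, HK2, PDK1 and EGLN1), in 0 fallen ones and in 3 of 16 not called, against 17.4%. As the words were chosen on the data they are counted in here, the counts are a description only.

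Genes in neighbouring pathways moved both ways, as did all tested genes, of which 22.1% rose and 22.4% fell. Among 19 tested genes listed as further glycolytic genes and carriers 5 rose and 1 fell, with a median of 0.02. The 5 include PGAM5, which is not an enzyme of glycolysis. HKDC1, a hexokinase-like gene, went from 9.42 and 9.46 in control to 9.98 and 10.05 in knockdown libraries (0.58 ± 0.05, SE), and PGAM5, a mitochondrial phosphatase named for its likeness to phosphoglycerate mutase, rose by 0.26 ± 0.03. SLC16A7, which encodes the lactate and pyruvate carrier MCT2, went from 11.38 and 11.35 to 10.83 and 10.81 (-0.54 ± 0.04). HKDC1 and SLC16A7 lay farther from 0 than any member. Among 11 genes of pyruvate entry into mitochondria 3 rose and 3 fell, with a median of -0.01. DLD, the shared dehydrogenase subunit, rose by 0.21 ± 0.03, while PDP1, the phosphatase that opposes the kinases, differed by -0.23 ± 0.04 and MPC1, a subunit of the mitochondrial pyruvate carrier, by -0.23 ± 0.04. In the pentose phosphate pathway 1 of 7 rose (PGLS, 0.15 ± 0.04; 0.04 and not called with the GC and length trend removed) and 1 fell (RPE, -0.15 ± 0.03; -0.06 with the trend removed), with a median of 0.03. In the TCA cycle 7 of 18 rose and 5 fell, with a median of 0.02. IDH3G and IDH3B, subunits of the NAD-dependent isocitrate dehydrogenase, rose by 0.23 ± 0.04 (0.15 after removal of that trend) and 0.19 ± 0.03.

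Further HIF genes gave no common direction. Of 14 tested regulators 5 rose and 2 fell, with a median of 0.04. EPAS1, which encodes HIF-2 alpha, went from 9.10 and 9.08 in control to 8.56 and 8.50 in knockdown libraries (-0.56 ± 0.05, SE; limma, adjusted p = 4.51e-29). The ubiquitin ligase gene SIAH2 rose by 0.18 ± 0.03 and CITED2, which competes with HIF for its coactivators, by 0.22 ± 0.05. Of 40 tested further HIF targets 10 rose and 10 fell, with a median of -0.02. DDIT4, an inhibitor of mTOR signalling, went from 14.18 and 14.24 to 14.49 and 14.55 (0.31 ± 0.03), while VLDLR, a lipoprotein receptor, differed by -0.46 ± 0.04 and ZNF395 by -0.16 ± 0.03. Over the 6 lists together 31 of 109 tested genes rose and 22 fell, with a median of 0.02, beside 22.1% and 22.4% of all tested genes.

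**Figure D5:**
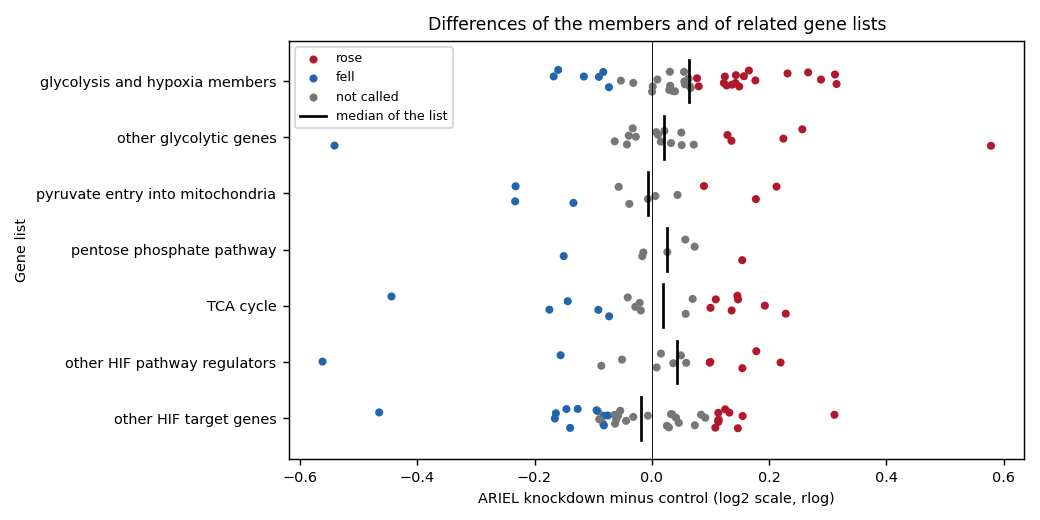
Difference between ARIEL knockdown and control (x axis, log2 scale, rlog) for each tested gene of the members and of 6 related lists (y axis); vertical bars are list medians and colours the call from limma. EPAS1, SLC16A7 and VLDLR lie farthest to the left and HKDC1 farthest to the right.

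The calls of PFKL, PGAM1, PDK3, ARNT and EGLN1, with adjusted p-values between 0.0316 and 0.0495 (limma), were each lost in 7 or 8 of 12 alternatives. With each gene's own variance on its 2 residual degrees of freedom, 0 members were called and 12 of 39 (30.8%) had an unadjusted p under 0.05, against 31.2% of all tested genes, so the calls rest on the spread shared by genes of a level. Reads of near-identical copies are a further limit: GENCODE 29 names 62 pseudogenes after GAPDH, 39 after BNIP3, 13 after PGAM1 and 6 after LDHA, and 0 of these has a row in the table. Several members share a strand and a stretch of the genome with another gene, among them PGK1 with ATP7A, ENO2 with LRRC23 and EGLN3 with SPTSSA.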

How the data were processed

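The authors deposited 1 table for the 4 libraries. Per the file headers, each row gives rlog (log2) values of the 4 libraries. The authors also deposited a log2 fold change per row, its standard error, the score of their test, its p-value and an adjusted one. Among tools, DESeq2 1.12.4, STAR 2.5.2a and HTSeq 0.6.1 appear in the submitters' processing notes with no roles, as does build hg19; the annotation is not stated. Libraries were strand-specific, per the labels' protocols, but whether counting used strand is not stated. Counts are not part of the table, which lists 4365 rows at 0 in every library.

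limma 3.58.1 (R 4.3.3; eBayes with a mean-variance trend, two-sided) was run across all genes whose mean rlog reached log2 of 10, on the values as deposited with no pseudocount, with Benjamini-Hochberg adjustment at 0.05. Prior degrees of freedom came out infinite: genes of 1 level share 1 spread. The script was tested on simulated data whose spread was set by level alone, so that test does not cover genes of 1 level that differ in spread. GC content, length, 3′ UTRs and overlaps come from GENCODE 29, matched by gene ID, and promoters from RefSeq (GRCh38.p14); neither uses hg19, so no coordinates were joined to the table. The trend was removed by splines with 5 degrees of freedom. All 40 members are named, with up to 3 called genes of each other list by smallest adjusted p; 1 gene that this rule names is not reported here. Members, lists and tests were chosen with earlier results of these data known. Figures used Python 3.11.15 and matplotlib 3.10.9.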

Additional observations from a re-analysis of the deposited data

How the results depend on the processing

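The number of members that rose was 17, and between 15 and 21 in every alternative that kept all 4 libraries and shared the spread; the median difference of the members was above 0 in each alternative on rlog values. With no filter on low values 3 members fell. Where each gene kept its own spread, 0 members rose and 0 fell, as did 0 of the other pathway genes and 0 of all genes, where 4561 had an unadjusted p under 0.05. Leaving out 1 library in turn gave 2 to 5 fallen members (2 without ARIEL knockdown replicate 1, 3 without ARIEL knockdown replicate 2) and 12 to 17 risen ones. It gave 2004 to 3061 risen among all genes and 20 to 31 among the other pathway genes, the lowest without ARIEL knockdown replicate 2; where a group has 1 library left, it is assumed to vary like the other. GAPDH changed sign under quantile normalization (-0.11, limma adjusted p = 5.60e-07), where a value is set by rank alone. The cause was not tested. The labels do not say that replicate numbers pair the libraries, and the differences between replicates 1 and 2 correlated at 0.20 between the groups. With the replicate number as a block 19 members rose and 6 fell (3722 and 3704 of all genes), ALDOC and ENO2 being the 2 gained. Depth is unknown, so no counting error can be given.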
